A study of Mus musculus with 6 samples.

Results

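Mitochondrial ribosomal proteins were followed in RNA-Seq data from WT MEFs, an immortalized line of mouse embryonic fibroblasts, 72 h after transfection with Scr, a control siRNA, or with Yme1l siRNA. YME1L is a protease of the mitochondrial inner membrane, and the comparison asks how the transcripts of these proteins differed once its mRNA was lowered. Both groups had the same WT genotype and consisted of 3 independent cultures each. The sample labels name 3T3 immortalization, whereas the methods of the study name SV40 large T antigen, so the origin of the line is uncertain. Members were all loci of the count table with a gene name that begins with Mrpl or Mrps followed by a digit, after pseudogenes (names with -ps) were left out. This rule found 78 of 51499 loci, 49 of the large subunit (Mrpl) and 29 of the small subunit (Mrps). It left out 5 loci named as pseudogenes. The name rule used no measured value, although it was set with earlier results of these data known.

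Mitochondria translate the few proteins encoded by mtDNA, all of them core subunits of the respiratory chain and ATP synthase, on their own ribosomes. The RNAs of these mitoribosomes come from mtDNA, but their proteins are encoded in the nucleus, made in the cytosol and imported. The small subunit holds the mRNA and the decoding centre, and the large subunit forms the peptide bond and feeds the new protein through an exit tunnel towards the inner membrane. Some of these proteins descend from bacterial ribosomal proteins, and others were gained in mitochondria. In the mouse the genes are spread over the genome, and the 78 members lay on 17 chromosomes.

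The libraries held between 37260605 and 45205207 counts. *Yme1l1*, the targeted gene, was at 170, 171 and 171 CPM (counts scaled to a common library size) in Scr and at 31.6, 23.4 and 45.04 CPM in Yme1l siRNA (log2 fold change −2.36 ± 0.20 SE, adjusted p = 3.87e-05), so the knockdown was weakest in culture 3. Of the fibroblast markers, *Thy1* had at most 1 count in any library. The summed level of the 8 markers was between 33446 and 40597 CPM in Scr and between 17963 and 22398 CPM in Yme1l siRNA. *Vim* overlapped between the groups (3189 to 3817 CPM in Scr, 2905 to 3298 CPM in Yme1l siRNA). *Col1a1*, *Col1a2*, *Col3a1*, *Fn1*, *Pdgfra* and *Pdgfrb* were lower in every Yme1l siRNA library than in every Scr library. The 3 endothelial markers summed to at most 1.92 CPM and the 3 epithelial markers to at most 0.529 CPM. Of the 4 macrophage and leukocyte markers, *Adgre1* was at 0 in all 6 libraries and *Ptprc* in 5 of them, while the list summed to between 162 and 178 CPM in Scr and between 241 and 254 CPM in Yme1l siRNA. That difference lay in *Csf1r* (109 to 134 CPM in Scr, 183 to 222 CPM in Yme1l siRNA), while *Cd68* overlapped between the groups (42.6 to 53.0 CPM and 25.7 to 58.2 CPM). The part of these shifts in the results was not tested. In bulk RNA, fewer cells of a type and less RNA per cell cannot be told apart.

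Transcripts of mitochondrial ribosomal proteins were more often higher than lower in Yme1l siRNA, by small amounts. Of the 78 members, 77 passed the filter on low counts and were tested. With a threshold of 0.05 on the adjusted p, 35 of these (45.5%) rose in Yme1l siRNA, 13 (16.9%) fell and 29 were not called. Over all 14499 loci tested, 28.4% were called higher and 29.6% lower. The median log2 fold change of the members was 0.18, beside 0.01 for all loci tested. No member differed by 2-fold, whereas 2342 of all loci tested did. The CPM values of the groups did not overlap for 58 of the 77 members (75.3%), 43 of them above and 15 below Scr, beside 65.4% of all loci. Culture 3 of Yme1l siRNA was the highest treated culture for 9 of the 13 members that fell and for 18 of the 35 that rose. Culture 2 of Scr was the highest control culture for the same numbers, 9 of the 13 and 18 of the 35. The part of the weaker knockdown in the ranks of treated culture 3 was not tested. The count of 13 falls became 8 without Yme1l siRNA replicate 1, and the count of rises remained between 30 and 38 when any single library was left out.

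Both subunits were shifted upwards, and the falls lay mostly in the large subunit. In the large subunit, 22 of 49 members tested rose (44.9%) and 11 fell (22.4%), with a median log2 fold change of 0.17. In the small subunit, 13 of 28 rose (46.4%) and 2 fell (7.14%), with a median of 0.19. Over all loci tested, 28.4% rose and 29.6% fell, so the share of falls was below that of all loci in both subunits. The mean log2 CPM over the large subunit members, relative to the mean of Scr, was −0.03, 0.04 and −0.01 in the Scr cultures and 0.10, 0.10 and 0.17 in the Yme1l siRNA cultures. For the small subunit the same mean was −0.03, 0.04 and −0.02 in Scr and 0.12, 0.14 and 0.23 in Yme1l siRNA. The groups did not overlap for either subunit, and culture 3, which kept the most *Yme1l1*, was the highest for both. The difference between the means of the subunits, large minus small, was 0.05, 0.05 and 0.05 on the log2 scale in Scr and 0.02, 0.01 and −0.01 in Yme1l siRNA. It was smaller in every Yme1l siRNA culture than in every Scr culture, by 0.04 on average.

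**Figure D1:**
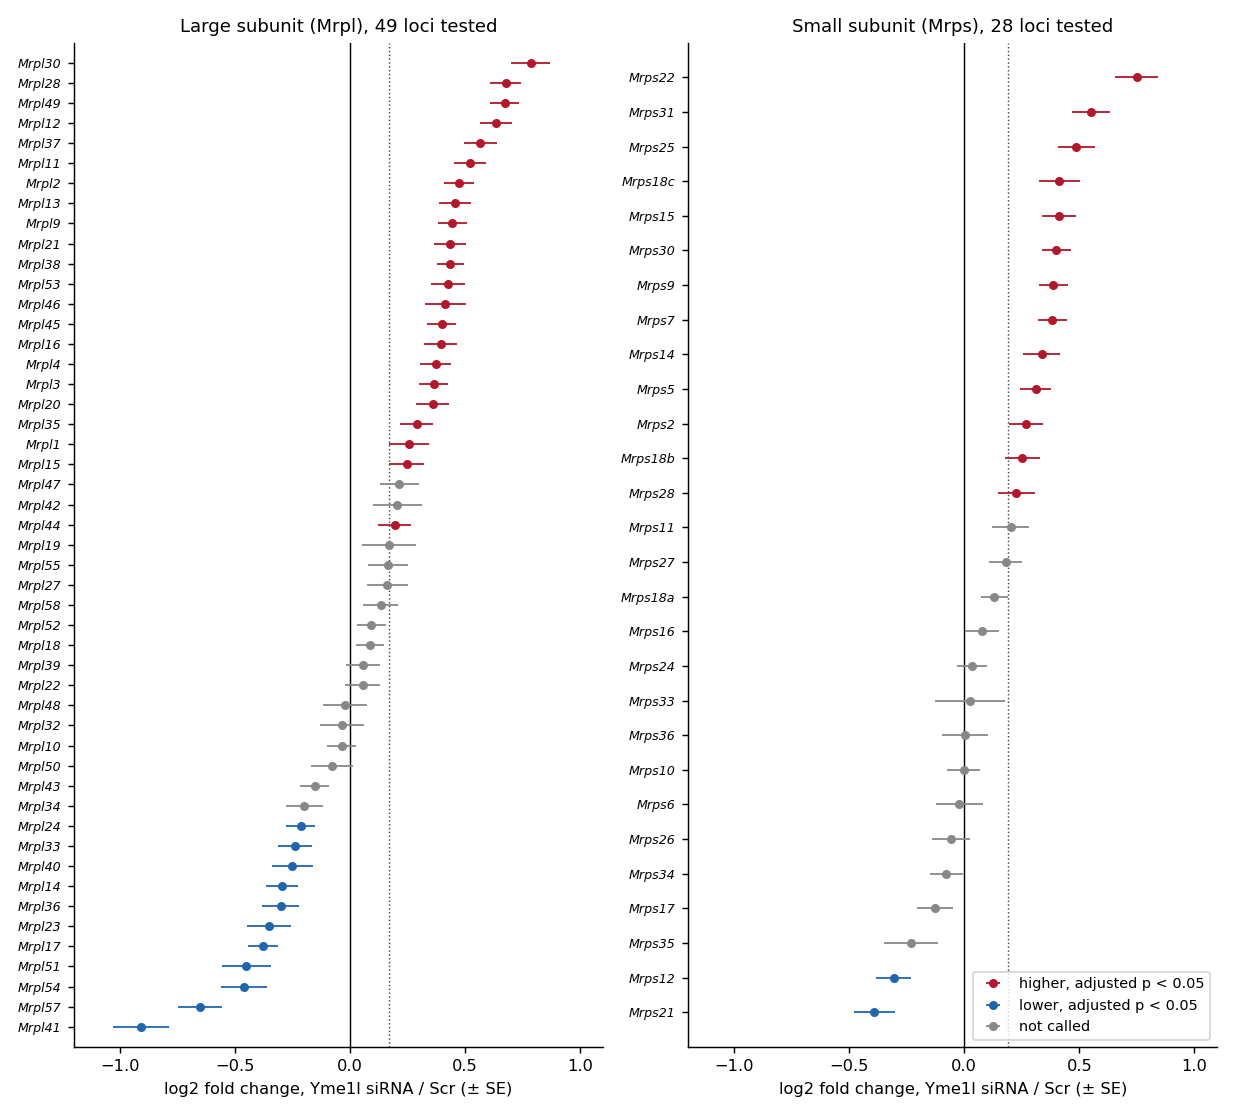
Log2 fold change of Yme1l siRNA over Scr for each of the 49 large subunit (left) and 28 small subunit (right) members tested, with bars for the SE of the fit over 3 cultures per group, colours for the call and a dotted line at the median of the subunit. Rises outnumber falls in both panels (22 against 11 and 13 against 2), and the lowest values belong to the large subunit.

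**Figure D2:**
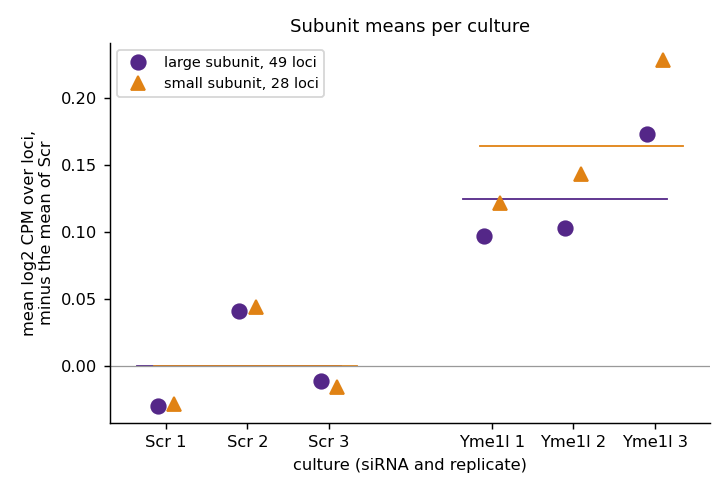
Mean log2 CPM over the members tested in each subunit, relative to the mean of the 3 Scr cultures, with 1 point per culture and a line at the group mean. All 3 Yme1l siRNA cultures lie above all 3 Scr cultures for both subunits, by 0.12 for the large and 0.16 for the small subunit on average.

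Among the large subunit proteins, the largest rise was that of *Mrpl30*, a protein with a bacterial counterpart, encoded at chr1:37890477-37898535 of GRCm38 on the plus strand. *Mrpl30* was at 48.7, 50.7 and 45.4 CPM in Scr and at 84.0, 90.7 and 74.7 CPM in Yme1l siRNA. Its groups were well separated, and the level rose 1.72-fold (log2 fold change 0.78 ± 0.09 SE, adjusted p = 0.000124). *Mrpl28*, another protein of bacterial descent, was measured at 89.6, 91.4 and 84.9 CPM in Scr and at 137, 145 and 142 CPM in Yme1l siRNA. This was a rise of 1.60-fold (adjusted p = 6.79e-05), with the cultures of each group close together. *Mrpl49*, found only in mitochondrial ribosomes, stood at 34.8, 36.9 and 37.04 CPM in Scr against 57.3, 59.8 and 56.2 CPM in Yme1l siRNA. It had the smallest adjusted p of all members, 5.36e-05, at a log2 fold change of 0.67 ± 0.06 SE. *Mrpl37*, a further mitochondria-specific protein, went from 36.2, 33.8 and 38.3 CPM to 52.0, 56.0 and 52.4 CPM (log2 fold change 0.57 ± 0.07 SE, adjusted p = 0.000238). None of these 4 calls was lost in any of the 15 alternative fits.

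The stalk of the large subunit, which recruits translation factors, rose in 2 of its 3 proteins (66.7%), beside 28.4% of all loci tested. *Mrpl12*, the mobile stalk protein itself, was at 72.2, 80.2 and 77.05 CPM in Scr and at 115, 118 and 124 CPM in Yme1l siRNA, a rise of 1.55-fold (adjusted p = 0.000137). *Mrpl11*, at the base of the stalk, was at 25.4, 24.5 and 23.5 CPM and at 34.1, 35.4 and 35.8 CPM, a rise of 1.44-fold (adjusted p = 0.000301). The lowest treated culture was thus above the highest control culture for both genes. *Mrpl10*, which holds copies of MRPL12 on the ribosome, overlapped between the groups, at 89.4, 83.6 and 86.7 CPM in Scr and 84.0, 85.6 and 83.8 CPM in Yme1l siRNA (log2 fold change −0.04 ± 0.06 SE, adjusted p = 0.648). A gene on the opposite strand overlapped 14.1% of the exon bases of *Mrpl10* and another 13.1% of those of *Mrpl12*, and the sources used here do not say whether counting used the strand.

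The deepest fall of any member was that of *Mrpl41*, a mitochondria-specific large subunit protein encoded at chr2:24974117-24975098 on the minus strand. *Mrpl41* was at 21.4, 24.996 and 20.5 CPM in Scr and at 11.7, 10.5 and 13.5 CPM in Yme1l siRNA, 0.533 times the control level (log2 fold change −0.91 ± 0.12 SE, adjusted p = 0.000336). *Mrpl57*, also mitochondria-specific, was the next, with 19.0, 22.7 and 19.1 CPM in Scr and 13.1, 13.2 and 12.5 CPM in Yme1l siRNA (log2 fold change −0.65 ± 0.10 SE, adjusted p = 0.000598). In both genes every treated culture lay far below every control culture. *Mrpl54* was at 32.7, 36.6 and 34.7 CPM in Scr and at 24.5, 22.4 and 28.6 CPM in Yme1l siRNA (log2 fold change −0.46, adjusted p = 0.00425). *Mrpl51* was at 48.0, 51.4 and 55.1 CPM and at 34.7, 34.5 and 43.9 CPM (log2 fold change −0.45, adjusted p = 0.0063). These are mitochondria-specific proteins too, so the 4 deepest falls belonged to this class, and for *Mrpl41*, *Mrpl54* and *Mrpl51* culture 3 was the treated culture nearest to the controls.

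*Mrpl41* and *Mrpl51* each have a near-identical annotated copy elsewhere in the genome, with 97.8% and 98.4% identity over the aligned coding bases, and how reads matching several places were counted is not given in the sources used here. The locus of the *Mrpl41* copy, *Gm6434*, held 0 counts in all 6 libraries, and that of the *Mrpl51* copy, *Gm14017*, held between 1 and 10. Among all members, 18 had such a near-identical match, and their values are uncertain to that extent. For *Mrpl43* the match was *Twnk*, which overlaps it on the opposite strand and is not a copy elsewhere. Leaving these 18 out gave 32 members higher and 9 lower. In addition, 13 members share at least 10% of their exon bases with a gene on the opposite strand, among them *Mrps25* (69.8%), *Mrps34* (63.4%), *Mrps18b* (30.5%) and *Mrpl24* (26.3%), and 5 members are joined with another gene in 1 locus of the count table. Their reads cannot be told apart from those of the other gene here.

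**Figure D3:**
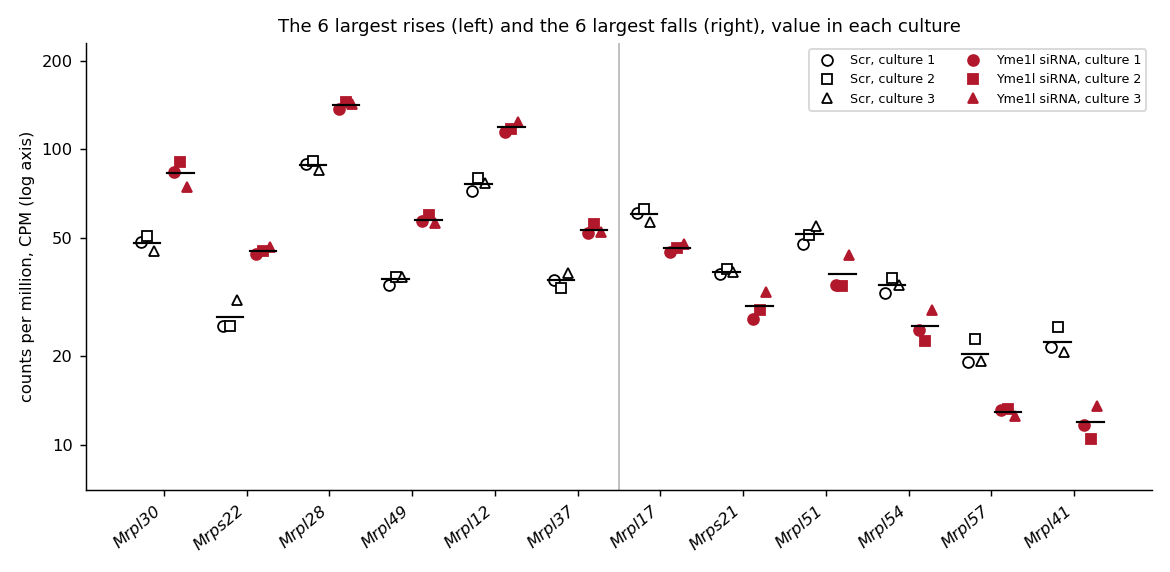
CPM on a log axis in each of the 3 Scr (open) and 3 Yme1l siRNA (filled) cultures for the 6 members with the largest rises and the 6 with the largest falls, with bars at the group means. Genes were chosen for a call and groups without overlap, and the means differ most for *Mrpl30* (1.72-fold) on the left and *Mrpl41* (0.533 times) on the right.

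Of the large subunit members not described elsewhere, 11 were called higher, namely *Mrpl2*, *Mrpl3*, *Mrpl4*, *Mrpl9*, *Mrpl15*, *Mrpl16*, *Mrpl20*, *Mrpl21*, *Mrpl35*, *Mrpl44* and *Mrpl53*, with log2 fold changes between 0.19 and 0.47. The weakest of them was *Mrpl44*, an RNA-binding protein with a nuclease fold, whose call (adjusted p = 0.0433) was lost when any 1 of the 6 libraries was left out, with adjusted p of up to 0.138. *Mrpl15* was lost without Scr siRNA replicate 1 or Yme1l siRNA replicate 1 or 3, with adjusted p between 0.0514 and 0.0932. *Mrpl14* (log2 fold change −0.29, adjusted p = 0.00686) and *Mrpl36* (log2 fold change −0.30, adjusted p = 0.0126) completed the falls, and *Mrpl36* was lost without Yme1l siRNA replicate 1 (adjusted p = 0.056).

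The proteins that line the exit tunnel and face the inner membrane did not move together, with 1 rise (16.7%) and 3 falls (50%) among 6, beside 28.4% and 29.6% of all loci tested. *Mrpl45*, which docks the ribosome on the inner membrane, was at 43.4, 46.5 and 46.2 CPM in Scr and at 58.9, 58.5 and 61.8 CPM in Yme1l siRNA (log2 fold change 0.40 ± 0.06 SE, adjusted p = 0.000807). *Mrpl17* was at 61.1, 62.8 and 57.0 CPM in Scr and at 44.9, 46.5 and 47.8 CPM in Yme1l siRNA (log2 fold change −0.38 ± 0.07 SE, adjusted p = 0.00138). *Mrpl45* and *Mrpl17* thus moved in opposite directions, each without overlap between the groups. *Mrpl23* was lower as well (log2 fold change −0.35, adjusted p = 0.0129), a call that was lost without Yme1l siRNA replicate 1 (adjusted p = 0.0596) and without Scr siRNA replicate 2 (adjusted p = 0.052), and its coding sequence has a copy in *Mrpl23-ps1*. *Mrpl24* was lower by a log2 fold change of −0.21 (adjusted p = 0.0178), which was lost without any of Scr siRNA replicate 1, Yme1l siRNA replicate 1 or Yme1l siRNA replicate 2, with adjusted p between 0.0525 and 0.075, and with library size alone as the scale (adjusted p = 0.0981). *Mrpl47* had a log2 fold change of 0.21 (adjusted p = 0.0548) and *Mrpl22* of 0.06 (adjusted p = 0.559), and neither was called. Without Yme1l siRNA replicate 2, *Mrpl47* passed the threshold (adjusted p = 0.0239).

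In the central protuberance, the crown of the large subunit near the tRNA sites, 2 of 8 proteins rose (25%) and 1 fell (12.5%), beside 28.4% and 29.6% of all loci tested. *Mrpl38* was at 46.7, 48.0 and 47.5 CPM in Scr and at 64.8, 62.8 and 64.6 CPM in Yme1l siRNA (log2 fold change 0.44 ± 0.06 SE, adjusted p = 0.000337). *Mrpl46* was at 15.2, 17.3 and 16.4 CPM and at 21.0, 23.5 and 20.6 CPM (log2 fold change 0.41 ± 0.09 SE, adjusted p = 0.00444). Both are mitochondria-specific, and in both the groups did not overlap. *Mrpl40* was called lower (log2 fold change −0.25, adjusted p = 0.0389), at the edge of the threshold, and its call was lost without any of 5 single libraries, all 3 Scr ones and Yme1l siRNA replicates 1 and 2, with adjusted p of up to 0.115, and also with library size alone as the scale (adjusted p = 0.102). The other 5 proteins, *Mrpl18*, *Mrpl27*, *Mrpl48*, *Mrpl52* and *Mrpl55*, had log2 fold changes between −0.02 and 0.17 and were not called.

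*Mrps22* showed the largest rise of the small subunit. This mitochondria-specific protein, in which inherited variants cause mitochondrial disease, is encoded at chr9:98588730-98601660 on the minus strand. *Mrps22* was at 25.2, 25.1 and 30.8 CPM in Scr and at 44.2, 45.4 and 46.7 CPM in Yme1l siRNA, a rise of 1.68-fold (log2 fold change 0.75 ± 0.09 SE, adjusted p = 0.000215). *Mrps31*, of the same class, was at 13.9, 15.3 and 15.5 CPM and at 21.3, 21.9 and 22.1 CPM (log2 fold change 0.55 ± 0.08 SE, adjusted p = 0.000568). For both, each treated culture exceeded each control culture. *Mrps21*, a short protein with a bacterial counterpart encoded at chr3:95862634-95871519, showed the larger of only 2 falls in the subunit. *Mrps21* was at 37.9, 39.5 and 38.3 CPM in Scr and at 26.7, 28.5 and 33.0 CPM in Yme1l siRNA (log2 fold change −0.39 ± 0.09 SE, adjusted p = 0.00513).

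The rises of *Mrps2*, *Mrps7*, *Mrps9*, *Mrps14*, *Mrps15*, *Mrps25* and *Mrps28* lay between log2 fold changes of 0.23 and 0.49. *Mrps7*, which binds the small subunit rRNA early in assembly, was at 58.5, 62.2 and 58.6 CPM in Scr and at 77.1, 78.9 and 77.8 CPM in Yme1l siRNA (log2 fold change 0.38, adjusted p = 0.000879). The cultures of *Mrps7* were thus close together in each group. *Mrps2* was lost without Scr siRNA replicate 2 (adjusted p = 0.0595), and *Mrps28*, called at an adjusted p of 0.0392, was lost without any single library but Yme1l siRNA replicate 2, with adjusted p of up to 0.133.

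The second fall was that of *Mrps12*, the protein that lines the decoding centre. *Mrps12* was at 23.9, 24.3 and 24.3 CPM in Scr and at 19.4, 18.6 and 20.7 CPM in Yme1l siRNA (log2 fold change −0.31 ± 0.08 SE, adjusted p = 0.00826). *Mrps5*, on the path by which mRNA enters, was at 40.5, 36.97 and 39.0 CPM and at 48.2, 46.2 and 50.05 CPM (log2 fold change 0.31 ± 0.07 SE, adjusted p = 0.00422). Decoding and mRNA entry thus held 1 fall and 1 rise, each without overlap. These were 25% each of the 4 proteins, close to the 29.6% and 28.4% of all loci tested. The other proteins fixed for this site, *Mrps24* (log2 fold change 0.03, adjusted p = 0.674) and *Ptcd3* (log2 fold change −0.09, adjusted p = 0.477), were not called, and *Mrps24* shares its locus in the count table with *Urgcp*.

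The *Mrps18* family holds 3 paralogues that occupy different places on the ribosome. *Mrps18c*, the nearest to the bacterial protein, was at 21.7, 23.8 and 21.6 CPM in Scr and at 28.5, 32.9 and 27.9 CPM in Yme1l siRNA (log2 fold change 0.41 ± 0.09 SE, adjusted p = 0.00413). *Mrps18b* was at 47.3, 45.8 and 41.0 CPM and at 51.4, 52.0 and 56.3 CPM (log2 fold change 0.25 ± 0.08 SE, adjusted p = 0.0203). The call of *Mrps18b* was lost without Scr siRNA replicate 2 or 3 or Yme1l siRNA replicate 3, with adjusted p between 0.051 and 0.0638. *Mrps18a*, which lies in the large subunit by structure, was at 51.5, 53.8 and 52.1 CPM and at 55.8, 58.2 and 58.3 CPM, without overlap but also without a call (log2 fold change 0.13 ± 0.06 SE, adjusted p = 0.0903). All 3 paralogues thus had higher means in Yme1l siRNA, and differences between the paralogues were not tested.

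Some names of the small subunit do not match its structure. *Mrps30* sits in the large subunit and was at 38.0, 37.3 and 38.2 CPM in Scr and at 49.8, 47.7 and 52.3 CPM in Yme1l siRNA (log2 fold change 0.40 ± 0.06 SE, adjusted p = 0.000829). *Mrps36* is a subunit of the 2-oxoglutarate dehydrogenase complex and overlapped between the groups, at 16.3, 19.6 and 17.1 CPM and 16.5, 17.5 and 19.2 CPM (log2 fold change 0.00 ± 0.10 SE, adjusted p = 0.979). With *Mrps18a* and *Mrps30* moved and *Mrps36* left out, the medians were 0.17 for the large and 0.20 for the small subunit. The other members nearest to 0 were *Mrps10* (log2 fold change 0.00 ± 0.07 SE) and *Mrpl48* (log2 fold change −0.02 ± 0.10 SE).

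*Mrps23* was the 1 member that failed the filter on low counts, and it is left out of the counts and medians given here. *Mrps23* held 1, 4 and 161 counts in Scr and 2, 4 and 9 counts in Yme1l siRNA, so a single Scr culture carried almost all of its reads. At 17 loci of the whole table, 1 library held at least 100 counts and more than 10 times the count of any other, and at 3 of these it was the same Scr culture. Its low count in 5 of the 6 libraries stood apart from the other members, which were all at 10.5 CPM or more in every library. With all loci of at least 1 count tested, *Mrps23* was called lower (log2 fold change −3.49 ± 1.06 SE, adjusted p = 0.0135). Without Scr siRNA replicate 3, an alternative chosen after seeing the data, the same fit gave a log2 fold change of 0.81 ± 1.00 SE (adjusted p = 0.594), so the call rested on that library. The reason for its high count was not tested.

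Members with a bacterial counterpart and members classed as mitochondria-specific were both shifted upwards. The second class holds every member outside a fixed list of bacterial counterparts. It thus includes *Mrps36*, a subunit of the 2-oxoglutarate dehydrogenase complex, and *Mrps18a* and *Mrps18b*, the paralogues of *Mrps18c*. Of 46 members with a counterpart in bacterial ribosomes, 23 rose (50%) and 8 fell (17.4%), with a median log2 fold change of 0.22. Of 31 mitochondria-specific members tested, 12 rose (38.7%) and 5 fell (16.1%), with a median of 0.13. Over all loci tested, 28.4% rose and 29.6% fell. Within the large subunit, 7 of the 19 mitochondria-specific members rose (36.8%) and 5 fell (26.3%), so the share of falls was close to that of all loci. *Mrpl49* and *Mrpl37* were among these rises and *Mrpl41* and *Mrpl57* among these falls. None of the 12 tested mitochondria-specific members with an Mrps name was called lower, although *Mrps35* had a log2 fold change of −0.23 (adjusted p = 0.124). These 12 include *Mrps18a*, *Mrps30* and *Mrps36*, which lie outside the small subunit by structure. The 6 of these 12 with an unadjusted p under 0.05 all had positive log2 fold changes, and *Mrps35* was not among them. DESeq2 and limma-voom left *Mrps35* uncalled as well, while it passed the threshold without Yme1l siRNA replicate 3 (adjusted p = 0.011) and, narrowly, with the replicate block (adjusted p = 0.0498).

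Members with long coding sequences tended to rise and those with short ones to fall. The coding length was taken as the longest annotated coding sequence, with a median of 774 bases for the members called higher, 561 for those not called and 405 for those called lower. All 13 members that fell had a coding length of at most 648 bases. Of the 15 members of 900 bases or more, 12 rose and 0 fell, whereas of the 13 members under 400 bases, 2 rose (15.4%) and 5 fell (38.5%). Among all protein-coding loci under 400 bases, 24.5% were higher and 37.5% lower, so the falls of the short members were close to the share of all genes of that length. The medians rose along 4 length classes, with −0.13 below 400 bases, 0.15 from 400 to 600, 0.25 from 600 to 900 and 0.39 above. For all protein-coding loci tested the medians in the same classes were −0.11, −0.02, −0.02 and −0.02. Of the 8879 such loci of 900 bases or more, 29.4% were higher and 32.3% lower. The shortest class was thus low among all genes too, but the longer classes of members stood above those of all genes.

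Across the 77 members the log2 fold change had a Spearman correlation of 0.50 with coding length, 0.49 within the large subunit (49 members) and 0.50 within the small subunit (28 members). The points share the same 6 libraries and are given as a description. Over 11894 protein-coding loci the correlation was 0.01, over 76 cytosolic ribosomal proteins 0.12 and over 71 nuclear OXPHOS subunits 0.29. For the 59 members without a near-identical match the value was 0.42. For all members it remained between 0.47 and 0.51 when any single library was left out. With the length of all annotated exons in place of the coding length it was 0.13, and with the GC content of the longest transcript it was −0.06. Members at a higher level also tended to rise more, with a correlation of 0.28 between the mean log2 CPM and the log2 fold change. The parts of level and length were not separated.

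**Figure D4:**
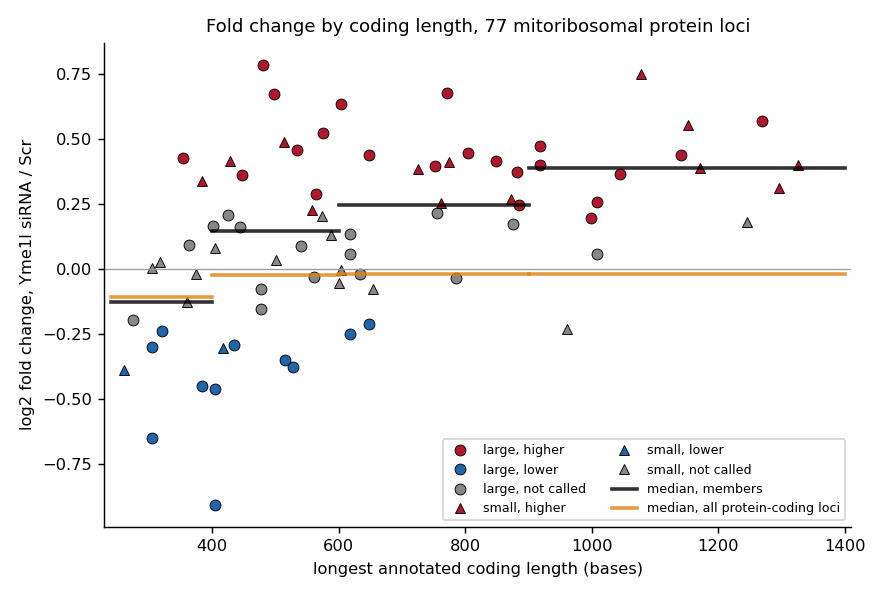
Log2 fold change of Yme1l siRNA over Scr against the longest annotated coding length in bases for 77 members, with circles for the large and triangles for the small subunit and colours for the call. Black lines give the median of the members in 4 length classes and orange lines that of all protein-coding loci tested, with the last class open to longer sequences. The median of the members climbs from −0.13 to 0.39, while that of all loci stays between −0.11 and −0.02.

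The levels of the transcripts differed widely between members. Per length, on the FPKM scale of the authors, who combined the 3 cultures of a group and gave no error, the highest member in Scr was *Mrpl33* at 253, a locus joined with *Babam2*. It was followed by *Mrpl52*, a protein of the central protuberance, at 164 and *Mrpl13*, a core protein of bacterial descent, at 147. The lowest members tested were *Mrpl1* at 8.44, *Mrpl11* at 8.77 and *Mrps31* at 10.6. Without replicate values in this unit, no order between neighbours can be tested. In CPM, the joined locus of *Mrpl33* fell and *Mrpl13* rose. In FPKM the *Mrpl33* locus was at 249 in Yme1l siRNA, close to its 253 in Scr. Why the 2 scales differ was not tested. *Mrpl33* was at 151, 161 and 140 CPM in Scr and at 129, 125 and 129 CPM in Yme1l siRNA (log2 fold change −0.24, adjusted p = 0.0209), and its call was lost without Scr siRNA replicate 1 or 2 or Yme1l siRNA replicate 1, with adjusted p between 0.0597 and 0.0854. *Mrpl13* was at 119, 129 and 121 CPM and at 162, 167 and 177 CPM (log2 fold change 0.46, adjusted p = 0.00068). *Mrpl1*, the lowest per length, rose by a log2 fold change of 0.26 (adjusted p = 0.031), which was lost when any single library but Yme1l siRNA replicate 2 was left out, with adjusted p of up to 0.123.

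Promoter windows of RefSeq (GRCm38.p6), which run from 250 bases before to 50 bases after a gene start, were given for 69 of the 78 members. They were searched on both strands for motifs of factors known for genes of mitochondria, growth and stress. The ETS motif CCGGAAG was present in 37.7% of members with a window, beside 9.93% of all 27025 genes and 19.5% of genes tested. The NRF1 motif GCGCANGCG was present in 23.2% of members, beside 7.03% of all genes and 14.9% of genes tested. The YY1 motif AANATGGCG was present in 15.9%, beside 2.76% and 5.78%. For ZNF143 (ACTACAA) the share was 7.25%, beside 3.78% and 4.75%, and for the MYC motif CACGTG it was 7.25%, beside 8.09% and 11.6%. The ATF4 motif TGATGNAA was present in 0 of the 69, beside 4.51% of all genes and 2.75% of genes tested. A match is a description of letters and not a sign of binding.

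These motifs were found in front of members that rose and of members that fell. The ETS motif was in the windows of 6 of 30 members called higher (20%), close to the 19.5% of genes tested. It was in 6 of 12 called lower (50%) and 13 of 26 not called (50%). The NRF1 motif was in 7 of 30 (23.3%), 4 of 12 (33.3%) and 5 of 26 (19.2%), beside 14.9% of genes tested. The differences between these shares were not tested. The next lines show matches before the RefSeq start of members with the largest rises and falls. They let opposite changes be seen beside the same letters. They are written along the strand of the gene with the motif, or its reverse complement, in capitals.
Mrpl30, higher, NRF1, chr1:37890365-37890393, plus strand: cttccaggaaGCGCACGCGtgacgccgct
Mrpl12, higher, NRF1 as reverse complement, chr11:120484547-120484575, plus strand: attgtctccgCGCCTGCGCgtcgcaccgc
Mrpl57, lower, NRF1, chr14:57826172-57826200, plus strand: tttgaatcctGCGCAGGCGcagaaggcgt
Mrpl17, lower, NRF1, chr7:105811080-105811108, minus strand: ccgagttactGCGCATGCGtcctctgaga
Mrps22, higher, ETS, chr9:98601674-98601700, minus strand: acctctcgagCCGGAAGttgctctatc
Mrpl51, lower, ETS, chr6:125192100-125192126, plus strand: aggggctaaaCCGGAAGtatttgactg

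The NRF1 motif began 102 bases before the RefSeq start of *Mrpl30* and 57 bases before that of *Mrpl57*. The ETS motif began 11 bases before the RefSeq start of *Mrps22* and 90 bases before that of *Mrpl51*. In GENCODE, *Mrpl51* starts at chr6:125191801, so by that annotation its match falls inside the gene. The window of *Mrpl41*, the member that fell most, held none of the ETS, NRF1 and YY1 letters, and the same was true of *Mrpl28* and *Mrpl49* among the rises.

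Of the mitoribosomal proteins whose names do not follow the Mrp pattern, 1 of 5 rose (20%) and 0 fell, with 2 of 5 at an unadjusted p under 0.05. Over all loci tested, 28.4% rose and 29.6% fell. *Chchd1*, a small subunit protein, was at 31.6, 35.7 and 36.2 CPM in Scr and at 46.7, 48.3 and 49.2 CPM in Yme1l siRNA (log2 fold change 0.48 ± 0.07 SE, adjusted p = 0.0007). *Dap3* (0.13), *Aurkaip1* (0.20) and *Gadd45gip1* (0.16) also had positive log2 fold changes without overlap between the groups, but were not called, with adjusted p of 0.12, 0.059 and 0.129. *Mrpl58*, known before as *Ict1*, a peptidyl-tRNA hydrolase built into the ribosome, is a member and was not called (log2 fold change 0.13, adjusted p = 0.168).

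Factors that assemble mitoribosomes or modify their RNA were divided, with 7 of 24 called higher (29.2%), 3 called lower (12.5%) and a median log2 fold change of 0.12. The share of rises was close to that of all loci tested (28.4%), and the share of falls was below that of all loci (29.6%). *Tfb1m*, an rRNA methyltransferase of the small subunit, had the largest fitted rise of the list at a low level, with 1.94, 2.00 and 4.12 CPM in Scr and 4.01, 4.74 and 5.96 CPM in Yme1l siRNA, and its groups overlapped (log2 fold change 0.86 ± 0.30 SE, adjusted p = 0.0377). This call was lost with single libraries left out (adjusted p up to 0.127). *Noa1*, a GTPase for the small subunit, was at 16.7, 16.5 and 17.7 CPM in Scr and at 29.6, 29.6 and 32.4 CPM in Yme1l siRNA (log2 fold change 0.84 ± 0.08 SE, adjusted p = 4.82e-05). *Fastkd2*, an RNA-binding factor of the large subunit, was at 14.6, 15.7 and 17.3 CPM and at 28.6, 26.9 and 25.01 CPM (log2 fold change 0.76 ± 0.09 SE, adjusted p = 0.000211). Each treated culture of *Noa1* and *Fastkd2* lay above each control culture. *Mettl15*, an rRNA methyltransferase of the small subunit, fell from 3.07, 3.13 and 3.72 CPM to 1.26, 1.47 and 1.80 CPM (log2 fold change −1.13 ± 0.20 SE, adjusted p = 0.00138). *Nsun4*, another rRNA methyltransferase, and *Mtg1*, a GTPase for the large subunit, fell by log2 fold changes of −0.50 and −0.52 (adjusted p = 0.00181 and 0.00876).

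Of 15 mitochondrial translation factors, 3 rose (20%) and 1 fell (6.67%), with a median log2 fold change of 0.17, so both shares were below those of all loci tested (28.4% and 29.6%). *Lrpprc*, which binds mitochondrial mRNAs, was at 78.4, 80.03 and 90.3 CPM in Scr and at 131, 112 and 149 CPM in Yme1l siRNA (log2 fold change 0.66 ± 0.11 SE, adjusted p = 0.00119). *Tsfm*, the nucleotide exchange factor of the elongation factor Tu, was at 26.0, 25.2 and 26.7 CPM and at 37.4, 37.5 and 41.6 CPM (log2 fold change 0.58 ± 0.07 SE, adjusted p = 0.000238). Neither *Lrpprc* nor *Tsfm* overlapped between the groups. The third rise was that of *Oxa1l*, which inserts new proteins into the inner membrane (log2 fold change 0.40, adjusted p = 0.000981), and the fall was that of the elongation factor *Guf1* (log2 fold change −0.43, adjusted p = 0.0109).

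The cytosolic ribosome and the respiratory chain differed from the mitoribosome in how their calls were divided. Of 81 cytosolic ribosomal proteins tested, 56 rose (69.1%) and 3 fell (3.7%), with a median log2 fold change of 0.40. Of 75 nuclear-encoded OXPHOS subunits tested, 16 rose and 16 fell (21.3% each), with a median of −0.01. The members, with 45.5% higher, 16.9% lower and a median of 0.18, thus lay between these lists as a whole, although the share of the large subunit that fell (22.4%) was above both, and the differences between lists were not tested.

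**Figure D5:**
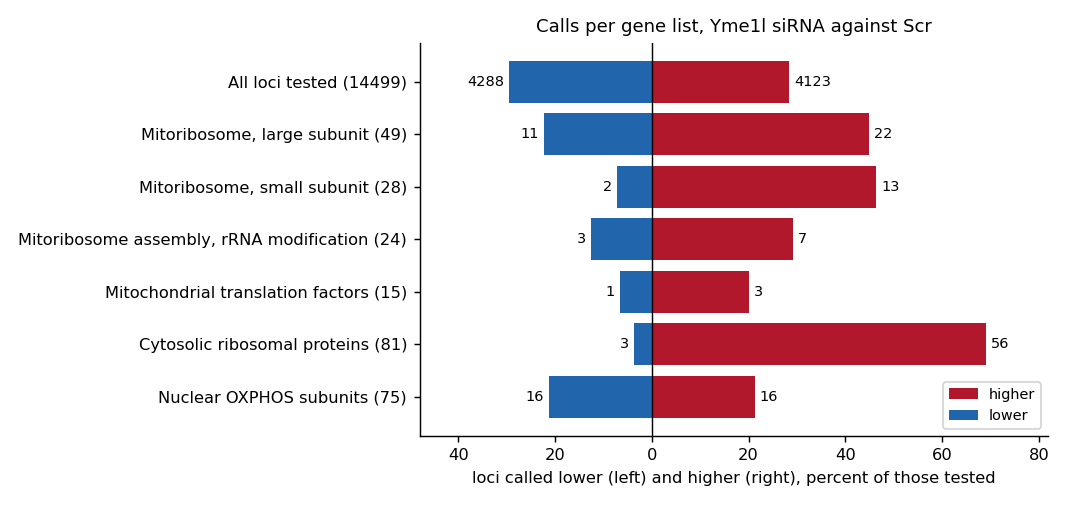
Share of the loci tested in each gene list that was called lower (left, blue) or higher (right, red) in Yme1l siRNA at an adjusted p under 0.05, with the number called beside each bar and the number tested in brackets. The share called higher is 44.9% in the large and 46.4% in the small subunit, between 69.1% of the cytosolic ribosomal proteins and 21.3% of the nuclear OXPHOS subunits, whereas the share called lower is 22.4% in the large subunit, close to the 21.3% of the OXPHOS subunits.

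Both RNAs of the mitoribosome, which were added after their values were seen, were higher in Yme1l siRNA. *mt-Rnr1*, the small subunit rRNA, was at 180, 154 and 154 CPM in Scr and at 454, 498 and 369 CPM in Yme1l siRNA (log2 fold change 1.44 ± 0.12 SE, adjusted p = 3.34e-05). *mt-Rnr2*, the large subunit rRNA, was at 196, 162 and 242 CPM and at 341, 333 and 473 CPM (log2 fold change 0.94 ± 0.17 SE, adjusted p = 0.0019). The libraries were made from poly(A)-selected RNA, which retains only a part of the rRNA, so these are levels within that part.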

How the data were processed

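RNA-Seq libraries of WT MEFs treated with Scr or Yme1l siRNA were analysed (3 independent cultures per group). Per the labels and methods, poly(A)-selected RNA was made into stranded libraries, reads were mapped to GRCm38 (mm10) with HISAT2 2.0.4, assembled with StringTie 1.3.3 and compared with Cuffdiff 2.2.1. The authors deposited raw counts per locus, without normalization. The program, strand setting and treatment of multiply mapped reads are not given in the sources used here. The FPKM values that the authors deposited are group values of their comparison. The fold changes and p-values in that table were not used.

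From the counts, edgeR 4.0.16 computed TMM factors and a quasi-likelihood test of all 14499 loci that passed filterByExpr (minimum 10 counts, 15 in total), with Benjamini-Hochberg adjustment and a threshold of 0.05. SE is the fitted change divided by the square root of F. On simulated counts of 14499 loci, this step recovered 160 of 200 loci changed 2-fold and called 15 unchanged loci. The simulation changed far fewer loci than were called in the data, and by more than any member changed. It thus does not measure the recovery of smaller changes or the scaling under so broad a shift. The p-values set the difference between the groups against the spread between these cultures of the same line. DESeq2 1.42.0 and limma-voom 3.58.1 were among the alternatives. Within groups, pairs of libraries differed beyond counting noise (chi-square over degrees of freedom from 10.33 to 76.27).

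Coordinates and lengths came from GENCODE M21. Near-identical copies were coding matches of at least 95% identity over at least 50% of the sequence (BLAST 2.17.0). The match of *Mrpl43* was the overlapping gene *Twnk*. Genes named were the 6 largest rises and 6 largest falls among called members without overlap (mean log2 CPM no lower than 1), the 3 highest and 3 lowest per length, the 3 nearest to 0, structural groups, paralogues and exceptions to the name rule. In the other lists, genes with the largest or smallest changes were named after their values were seen. Members and lists were chosen with earlier results of these data known.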

Additional observations from a re-analysis of the deposited data

How the results depend on the processing

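None of the 77 members changed direction under any alternative in which it was called. Of the 35 members called higher, 29 kept their call in all 15 alternative fits, as did 8 of the 13 called lower, and 21 of the 29 uncalled members stayed uncalled. Adjusted p under 0.01 left 8 members lower. Leaving out single libraries gave between 30 and 38 members higher and between 8 and 14 lower, with the count of 8 reached without Yme1l siRNA replicate 1, and medians between 0.15 and 0.20 for the large and between 0.15 and 0.22 for the small subunit. Scaling by library size alone gave medians of 0.23 (large) and 0.26 (small), when the median of all loci moved by 0.06. With this scale 39 members were higher and 10 lower, as the calls of *Mrpl24*, *Mrpl33* and *Mrpl40* were lost and *Mrps11*, *Mrps18a*, *Mrps27* and *Mrpl47* passed the threshold. Testing all loci with at least 1 count gave 32 higher and 14 lower, with *Mrps23* among the latter through Scr siRNA replicate 3 alone. Alternatives chosen after seeing the data also moved the medians. Without members that have a near-identical match they were 0.25 and 0.25. With the trend of coding length over all loci removed, that of the large subunit was 0.23. The cause was not tested. Correlations of deviations between same-numbered cultures were 0.04, 0.12 and 0.19, which cannot show whether the cultures were paired. With the replicate block, 35 members were higher and 14 lower, *Mrps35* among the latter, with medians of 0.16 and 0.19.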
